A study of Mus musculus with 51 samples.

Results

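The oxidative phosphorylation subunits are the protein building blocks of the 4 respiratory chain complexes and of ATP synthase, here numbered complexes I to V. Members were the protein-coding genes whose symbols carry the family names (Ndufa, Ndufb, Ndufc, Ndufs, Ndufv, Sdha to Sdhd, Uqcr, Cox4 to Cox8, Atp5, and the mt- symbols of the mitochondrial genome). This rule gave 98 of the 50600 genes in the count tables, 85 encoded in the nucleus and 13 in mitochondrial DNA, and the 9 matching pseudogenes were left out. By complex, the nuclear members were 7 core and 29 accessory subunits of complex I, 4 of complex II, 8 of complex III, 20 of complex IV and 17 of complex V. The mitochondrial members were 7 of complex I, 1 of complex III, 3 of complex IV and 2 of complex V. Ndufa4 and its relative Ndufa4l2 were placed with complex IV, and cytochrome c1 (Cyc1) does not carry a family symbol and was not a member.

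RNA was measured in mouse neutrophils in a pair of settings. In the first, a subcutaneous air pouch 6 days old was injected with 100 µg zymosan, a yeast cell wall particle, and Ly6G+ cells were sorted 4 h later from CX3CR1GFP Ly6GCre-tdTomato mice. These gave 5 libraries from the pouch exudate, 2 from the pouch membrane, 5 from blood and 3 from bone marrow, and every group came from challenged animals, so there is no unchallenged control. In the second, ER-Hoxb8 neutrophils were used, which grow from progenitors held immature by an estrogen-dependent Hoxb8 and mature once estrogen is withdrawn. They were differentiated for 5 days with stem cell factor and G-CSF and then kept for 2 h with DMSO vehicle or with 50 µg/ml zymosan, with 2 libraries per group. Wild-type (WT) cells and cells labelled CEBPB-/- and JUNB-/- made up set 1, and WT cells and cells labelled IRF5-/- and RELB-/- made up set 2, each with DMSO and with zymosan. Cells labelled RUNX1-/- and KLF6-/- have DMSO libraries alone, set here against the DMSO libraries of the set 2 WT cells. The labels do not say how the lines were edited, whether a line is a clone, or whether the 2 libraries of a group came from separate cultures, so p-values measure the spread between libraries, which may be technical.

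Complex I takes electrons from NADH and complex II takes them from succinate. Complex III passes them to cytochrome c, complex IV passes them to oxygen, and ATP synthase uses the resulting proton gradient to make ATP. Most subunits are nuclear genes translated in the cytosol, while the mitochondrial genome encodes a small set of membrane core subunits, so each complex other than complex II needs transcripts from both genomes. Neutrophils have few mitochondria and make most of their ATP by glycolysis, while the mitochondrial network is known to serve chemotaxis, redox balance and cell death in these cells.

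Counts per library ran from 9.24 to 19.1 M (M, the SI prefix mega) in the tissue table, from 19.4 to 32.4 M in set 1, from 24 to 34.3 M in set 2 and from 26.9 to 30.1 M in the RUNX1 and KLF6 table. Levels are in CPM, a gene's counts per M counts of the library, with library sizes scaled by the trimmed mean of M-values (TMM), and each table was scaled by itself. A gene is called higher or lower where edgeR's quasi-likelihood test, with Benjamini-Hochberg adjustment over all genes tested in the table, gave an adjusted p under 0.05. Of the members, 77 nuclear and 11 mitochondrial ones passed the low-count filter in the tissue table, 77 and 10 in set 1, and 78 and 10 in each of the other tables. The 77 of set 1 include Ndufa4l2, which within that set had reads in the JUNB-/- libraries alone. Scaling matters here: with zymosan the median gene of all tested lay between -0.69 and -1.02 on the log2 scale when libraries were scaled by total counts, against -0.09 to 0.05 with TMM, so changes below are relative to the typical gene. The targeted genes do not check the labels. With DMSO, Cebpb stood at 537 and 510 CPM in the libraries labelled CEBPB-/- against 479 and 536 in WT, Junb at 486 and 511 against 851 and 949, Irf5 at 81.0 and 81.8 against 95.7 and 101.4, and Relb at 68.3 and 67.5 against 168.1 and 171.7. Runx1 stood at 155.6 and 151.9 CPM in the libraries labelled RUNX1-/- against 59.3 and 61.5 in WT, and Klf6 at 851 and 852 in those labelled KLF6-/- against 622 and 638. Directions drawn for these lines therefore rest on their labels.

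A few transcription factors are known to bind the promoters of many nuclear subunits: NRF1, ETS factors such as GABP, YY1 and the estrogen-related receptors (ERR). RefSeq promoters of build GRCm38.p6, each 300 bases around the start of transcription, were matched to 68 of the 85 nuclear members. The NRF1 core GCATGCGC stood in 10 of 68 member promoters (14.7%) and in 3.93% of all 17491 promoters. The ETS letters CCGGAAG stood in 16 (23.5%, against 12.9% of all), the YY1 letters AAGATGGCG in 7 (10.3%, against 2.14%) and the ERR letters TCAAGGTCA in 2 (2.94%, against 0.377%). Both strands were searched, and the letters of the 4 motifs do not contain each other. At least 1 of the 4 stood in 28 member promoters (41.2%) and in 17.9% of all, and a match is a description of the letters, not a bound site. The 17 members with no matched promoter included Ndufa2, Ndufb4c, Ndufb9, Ndufs1, Sdhc, Uqcrb, Uqcrc2, Uqcrq, Cox4i1, Cox4i2, Cox6a2, Cox6c, Cox8c, Ndufa4l2, Atp5a1 and Atp5mpl.

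Below are 4 promoters of members called in all 6 lines, each 5′ to 3′ on the gene's strand with motif letters in capitals. All 4 hold at least 1 of the motifs, whereas 28 of the 68 matched member promoters (41.2%) do, so they are not typical members. Sdhd (chr9:50603800-50604099, minus strand), Ndufa9 (chr6:126849095-126849394, minus strand) and Ndufa8 (chr2:36049289-36049588, minus strand) were lower with zymosan in all 6 lines, and Cox6a1 (chr5:115348909-115349208, minus strand) was higher in all 6.
Sdhd: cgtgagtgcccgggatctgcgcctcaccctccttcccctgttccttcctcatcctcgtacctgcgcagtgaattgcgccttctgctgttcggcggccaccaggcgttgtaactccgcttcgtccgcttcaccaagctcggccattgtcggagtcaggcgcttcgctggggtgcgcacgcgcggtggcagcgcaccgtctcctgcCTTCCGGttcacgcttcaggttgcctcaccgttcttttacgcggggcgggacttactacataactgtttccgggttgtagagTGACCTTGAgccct
Ndufa9: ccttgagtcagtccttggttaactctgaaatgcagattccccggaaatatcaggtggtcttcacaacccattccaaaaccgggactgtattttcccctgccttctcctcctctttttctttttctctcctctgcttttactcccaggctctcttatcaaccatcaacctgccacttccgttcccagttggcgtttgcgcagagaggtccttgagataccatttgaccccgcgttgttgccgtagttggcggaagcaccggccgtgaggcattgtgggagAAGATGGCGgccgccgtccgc
Ndufa8: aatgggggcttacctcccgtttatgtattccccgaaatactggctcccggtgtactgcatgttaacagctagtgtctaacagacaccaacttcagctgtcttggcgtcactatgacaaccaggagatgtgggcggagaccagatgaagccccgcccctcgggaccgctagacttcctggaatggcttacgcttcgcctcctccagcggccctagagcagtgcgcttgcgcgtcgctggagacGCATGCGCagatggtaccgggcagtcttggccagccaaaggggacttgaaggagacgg
Cox6a1: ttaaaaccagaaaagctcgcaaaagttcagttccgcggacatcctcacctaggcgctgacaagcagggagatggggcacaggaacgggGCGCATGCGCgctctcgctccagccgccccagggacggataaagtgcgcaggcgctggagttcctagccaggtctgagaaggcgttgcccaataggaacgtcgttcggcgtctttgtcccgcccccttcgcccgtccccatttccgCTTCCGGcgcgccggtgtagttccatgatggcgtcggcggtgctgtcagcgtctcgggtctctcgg
In the Sdhd promoter the ETS letters lie on the reverse strand with their first base at -46 from the start, and the ERR letters lie on the reverse strand at 36. The Ndufa9 promoter has the YY1 letters at 29, just past the start, and the Ndufa8 promoter has the NRF1 core at -8. In the Cox6a1 promoter a run at -162 and -160 reads as the NRF1 core on both strands with overlapping letters, and the ETS letters lie on the reverse strand at -16. Members that fell and members that rose with zymosan both hold these letters: among the 13 that were lower in all lines, 2 had the NRF1 core and 3 the ETS letters, and among the 9 that were higher, 1 and 2 did.

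Per length of exon, the small complex IV subunit Cox8a was the most abundant nuclear member in all 4 tables, with mean levels, in reads per kilobase of exon and scaled library size (RPKM, CPM divided by length), of 482.5 in the tissue table, 160.8 in set 1, 205.2 in set 2 and 231.7 in the RUNX1 and KLF6 table. In the ER-Hoxb8 cells of set 1, complex IV subunits with tissue-specific relatives were read from the ubiquitous isoform. Cox4i1 had a median of 155 CPM over the 12 libraries and its lung isoform Cox4i2 had 12 reads in all of them together. The heart and muscle isoform Cox6a2 had 4 reads against 14699 for Cox6a1, and the testis isoform Cox6b2 had 3 reads against 16533 for Cox6b1. Cox7a1, the muscle form, had a median of 0.154 CPM against 34.1 for Cox7a2 and 120 for Cox7a2l, a supercomplex assembly subunit. The sorted neutrophils had an exception in Cox4i2, with 579 reads against 1244 of Cox4i1 in exudate library 3 and at most 4 in each of the other 14 libraries. The muscle form Cox8b had no read in any table, and Cox8c and Cox7b2 had none in the ER-Hoxb8 tables. Among the 3 genes for the identical c-ring subunit of ATP synthase, Atp5g3 led with medians of 38.8 CPM in set 1 and 44.8 in set 2. Atp5g2 stood at 8.74 to 13.7 CPM in the 12 libraries of set 1 and at 0.0907 to 0.525 CPM in the 12 of set 2, WT cells included, while the tables were normalized separately. The gap was also there in reads, at 112 to 528 per library against 2 to 21. Atp5l likewise had 1097 to 2426 reads in set 1 and 134 to 311 in set 2. The cause was not tested, so levels of these genes are uncertain. In the complex I core, Ndufs1, the largest core subunit, was the lowest per length in set 1, at 3.41 RPKM.

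The mitochondrial members fell into a well counted and a poorly counted group. In set 1, mt-Co1, the catalytic subunit of complex IV, had 28029 to 89545 reads per library, mt-Cytb 6484 to 18143, mt-Nd4 3255 to 9700, mt-Nd5 2856 to 6723, mt-Nd1 1891 to 4718 and mt-Nd2 1363 to 4456. In the same libraries mt-Co2 had 15 to 52 reads, mt-Co3 18 to 71, mt-Atp6 20 to 73 and mt-Nd6 7 to 70, and mt-Nd3, mt-Nd4l and mt-Atp8 had at most 5 each. Only reads with the highest mapping quality, which STAR gives to uniquely placed reads, were counted, and nuclear copies of mitochondrial DNA on chromosome 1 are nearly identical to several of these genes. Levels of the poorly counted genes are therefore uncertain, mt-Atp8 with mt-Atp6 and mt-Nd4l with mt-Nd4 also overlap, and counts of mitochondrial members in the ER-Hoxb8 comparisons below are over the 6 well counted genes, mt-Co1, mt-Cytb, mt-Nd1, mt-Nd2, mt-Nd4 and mt-Nd5. Nuclear members of the ER-Hoxb8 tables were counted under the same limit on mapping quality, so levels of any with near-identical copies are uncertain as well. The ER-Hoxb8 libraries were selected for polyadenylated RNA, so a mitochondrial count covers polyadenylated transcripts only.

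With zymosan the core subunits of complex I and the subunits of complex IV moved in opposite directions relative to the typical gene. In WT cells of set 1 all 7 core subunits of complex I were lower, with a median log2 change of -0.54, while 9 of 13 tested complex IV subunits were higher, with a median of 0.18, where 35.7% of all genes were higher and 39.9% lower, and by total counts none of the 13 were higher (all genes 18.7%). In WT cells of set 2, 6 of 7 core subunits were lower (median -0.45) and 10 of 13 complex IV subunits higher (median 0.35), where 36.3% of all genes were higher and 32.1% lower, with none of the 13 higher by total counts (all genes 13.3%). The 13 of set 1 and their median include Ndufa4l2, which had no read in WT and passed the filter through the JUNB-/- libraries. Complex V had medians of 0.09 in both WT sets. The 6 lines share no library for this comparison, since each has its own DMSO and zymosan libraries. Of the 76 nuclear members tested in all 6, 13 were lower in every line and 9 were higher in every line. The share of all genes tested in the 6 lines that were higher in each was 21.5%, and the share lower in each was 22.3%, so the nuclear members as a whole were not called more often than other genes. The libraries of these 22 members did not overlap between DMSO and zymosan in any line. The share of all genes without such overlap is not given here, so with 2 libraries per group this adds nothing to the calls. Lower in every line were 5 of the 7 core subunits of complex I (Ndufs1, Ndufs3, Ndufs8 and Ndufv2 among them, of the arm that takes electrons from NADH to quinone), 4 of its 28 accessory subunits tested (Ndufa8, Ndufa9, Ndufa10 and Ndufb10), 2 of the 4 subunits of complex II (the catalytic Sdha and the membrane anchor Sdhd) and 2 of the 8 of complex III (the core proteins Uqcrc1 and Uqcrc2). Higher in every line were 5 of 12 complex IV subunits tested (Cox4i1, Cox5b, Cox6a1, Cox7a2 and Cox8a), the Rieske iron-sulfur protein Uqcrfs1 and the quinone-site subunit Uqcrq of complex III, the accessory complex I subunit Ndufa2 and the catalytic beta subunit of ATP synthase, Atp5b. No core complex I subunit and no complex II subunit was higher in all 6 lines, and no complex IV or V subunit was lower in all 6. The counts for accessory complex I (4 of 28 lower), complex III (2 of 8 each way) and complex V (1 of 17 higher) lie near or below the shares of all genes.

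**Figure D1:**
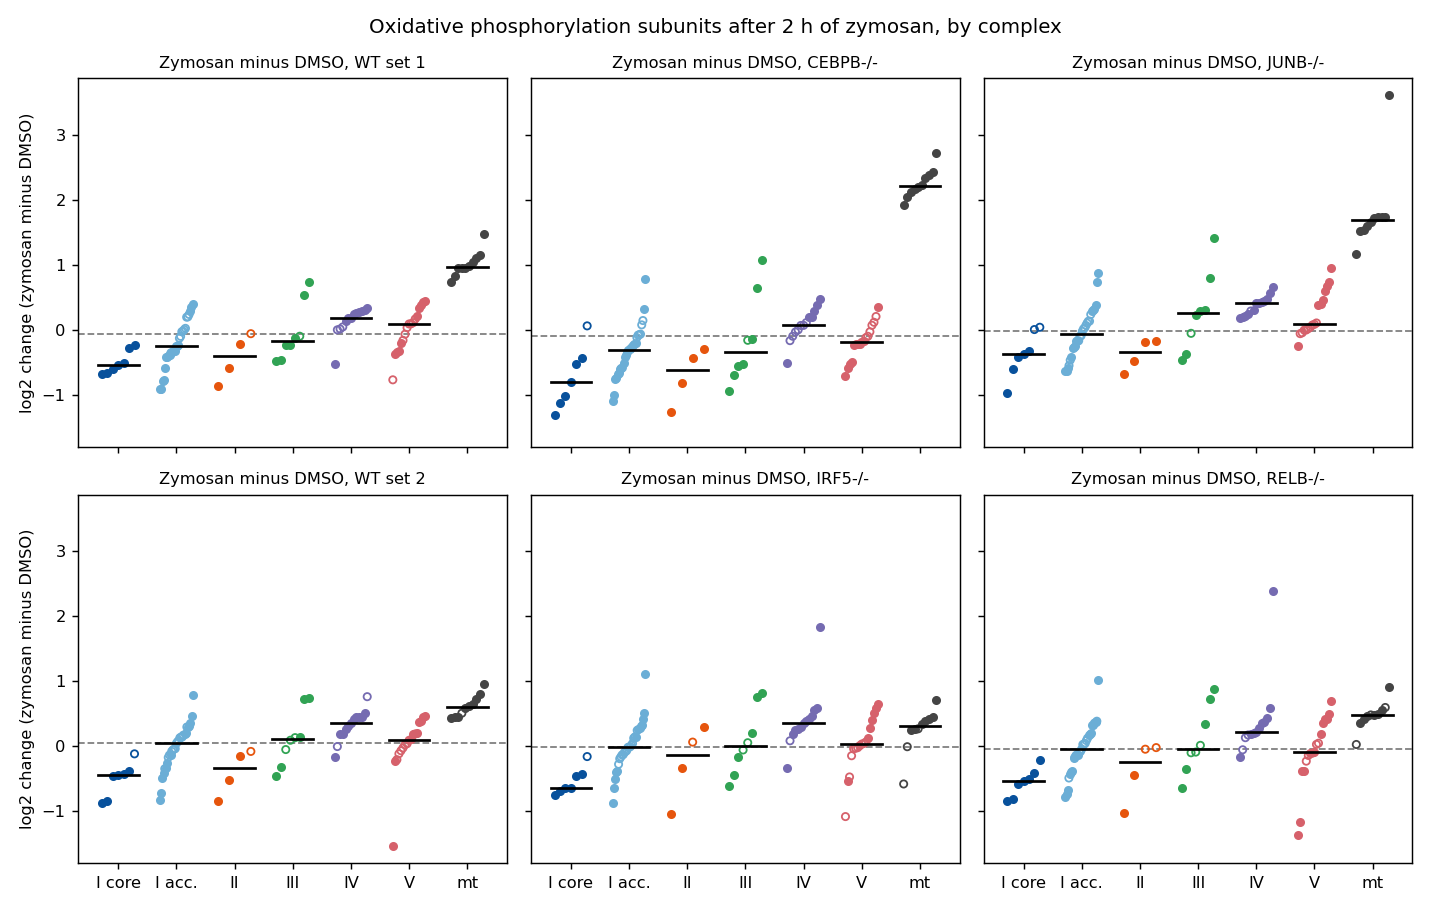
Log2 change with zymosan against DMSO (TMM scaling) of each tested nuclear subunit by complex and of the 10 tested mitochondrial subunits (mt), in 6 lines; each point is 1 gene, filled where called, solid bars are medians and the dashed line is the median of all genes. Core complex I medians lie from -0.80 to -0.37 and complex IV medians from 0.07 to 0.41, while by total-count scaling at most 2 nuclear subunits per line were higher.

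Sdhd, which holds complex II in the inner membrane, was among the 13 that were lower in every line. In WT cells of set 1 it stood at 41.9 and 39.6 CPM with DMSO and at 22.8 and 22.1 with zymosan, and in WT cells of set 2 at 50.0 and 51.4 against 28 and 28.3. The zymosan libraries all lie below the DMSO libraries in both sets. Its log2 change was -0.86 (SE 0.06, adjusted p = 3.94e-19) in WT of set 1 and -0.85 (SE 0.06, adjusted p = 6.59e-23) in WT of set 2, and over the 6 lines it ran from -1.26 to -0.48. Ndufs1, the large iron-sulfur subunit, stood at 33.5 and 30.8 CPM with DMSO and 20.4 and 19.8 with zymosan in WT of set 1. It fell furthest in cells labelled CEBPB-/-, from 37.2 and 41.2 CPM to 14.9 and 16.9, a log2 change of -1.31 (SE 0.08, adjusted p = 4.41e-21). Ndufv2, which binds an iron-sulfur cluster next to the flavin subunit, ran from -1.13 to -0.51 over the lines, and Ndufa9, at the hinge between the arms of complex I, from -1.10 to -0.34.

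Uqcrfs1 and Uqcrq moved the other way within complex III. Uqcrfs1 stood at 26.1 and 25.7 CPM with DMSO and 42.3 and 43.7 with zymosan in WT of set 1, and at 31.1 and 28.1 against 48.7 and 49.9 in WT of set 2. The log2 change was 0.74 in each (SE 0.06, adjusted p = 4.4e-17 and 8.38e-20), with a range of 0.74 to 1.07 over the 6 lines. Uqcrq rose most in cells labelled JUNB-/-, from 14 and 13.8 CPM to 38.5 and 36.1, a log2 change of 1.42 (SE 0.08, adjusted p = 1.11e-23). The core proteins of the same complex went down, Uqcrc1 by -0.95 to -0.37 and Uqcrc2 by -0.70 to -0.32 on the log2 scale. Among complex IV subunits the rises were small: Cox7a2 ran from 0.34 to 0.59, Cox8a from 0.30 to 0.66, Cox6a1 from 0.20 to 0.48, Cox4i1 from 0.20 to 0.56 and Cox5b from 0.13 to 0.46. Atp5b ran in a narrow band from 0.36 to 0.46, and in WT of set 1 it stood at 202.8 and 202.0 CPM with DMSO against 269.9 and 280.1 with zymosan. Of the other ATP synthase genes, Atp5k and Atp5mpl, small membrane subunits, were higher in 5 lines each, and the alpha subunit Atp5a1 was higher in 1 and lower in 4.

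The members that fell and those that rose differed in transcript length, with a median exon length of 2178 bases for the 13 that fell (861 to 8086) and of 1363 bases for the 9 that rose (545 to 4237), against 1542 for the 76 tested. Their ranges overlap, and the part of length in the result was not tested. A further 15 members were higher in some lines and lower in others, among them Ndufa4, Sdhb, Atp5f1 and Cox7a2l, and 5 were called in no line: Ndufa5, Ndufa11, Ndufa12, Ndufc1 and Ndufc2.

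Counted line by line, from 10 (CEBPB-/-) to 30 (JUNB-/-) nuclear subunits were higher and from 18 (IRF5-/-) to 40 (CEBPB-/-) lower. In WT cells of set 1, 19 of 77 nuclear members were higher and 35 lower, where 35.7% of all genes tested were higher and 39.9% lower. In WT cells of set 2, 27 of 78 were higher and 21 lower (all genes 36.3% and 32.1%). In cells labelled CEBPB-/-, 10 were higher and 40 lower (all genes 35.1% and 38.4%), and in those labelled JUNB-/-, 30 were higher and 20 lower (36.5% and 36.7%). In cells labelled IRF5-/-, 29 were higher and 18 lower (34.3% and 35.4%), and in those labelled RELB-/-, 25 were higher and 26 lower (35.2% and 37.5%). With another scaling of the edgeR fit, by relative log expression (RLE), the split turned to 28 higher and 23 lower in WT of set 1 (all genes 39.9% and 35.2%) and moved to 14 and 30 in CEBPB-/- (37.6% and 35.3%). The median nuclear member lay within 0.14 log2 units of the median of all genes in each line.

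As a share of all counts, the nuclear subunits went down with zymosan in every line. In WT of set 1 they took 0.383% and 0.366% of counts with DMSO and 0.222% and 0.229% with zymosan, and in WT of set 2 they took 0.352% and 0.343% against 0.200% and 0.202%. In cells labelled CEBPB-/- the share went from 0.415% and 0.405% to 0.190% and 0.188%, and the DMSO and zymosan libraries lie apart in each line. The 4 cell cycle markers moved as well, from 45.7 to 48.6 CPM with DMSO to 100.5 to 109.9 with zymosan in WT of set 1, and their part in the result was not tested. Scaled by total counts in place of TMM, 67 to 76 nuclear members were lower with zymosan per line and at most 2 were higher, so the rises above are relative to the typical gene and not rises in share. The typical gene moved the same way: 57.1% to 68.1% of all genes were lower on that scale and 13.3% to 21.9% higher.

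**Figure D2:**
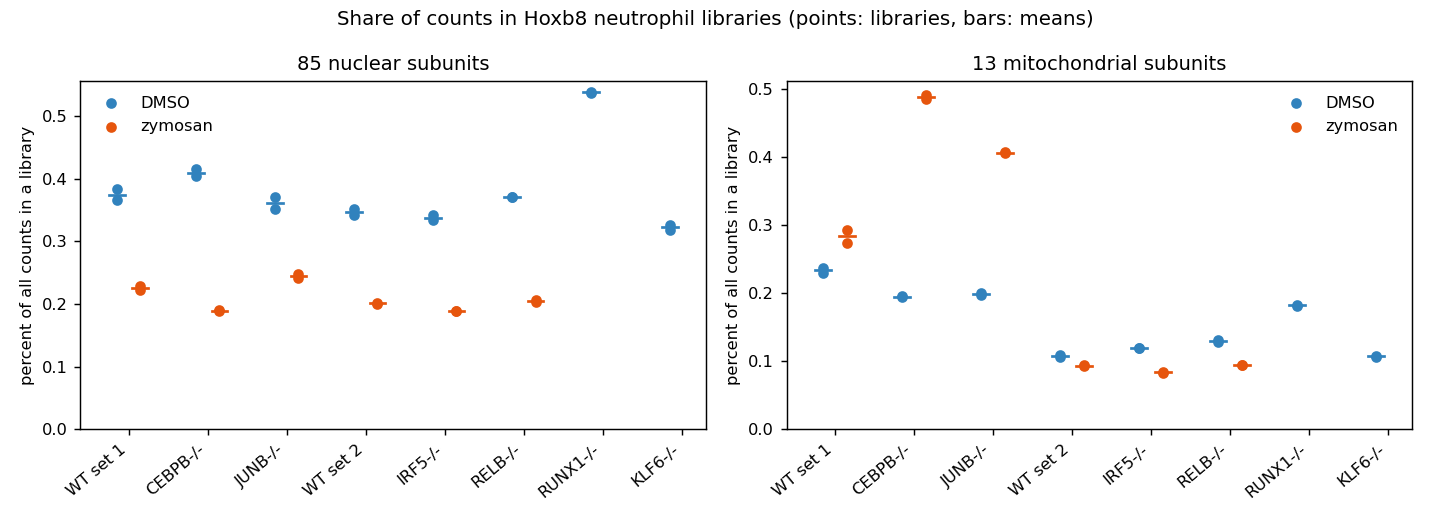
Percent of all counts taken by the 85 nuclear (left) and 13 mitochondrial (right) subunits in each ER-Hoxb8 library, where points are libraries and bars are group means. The nuclear share is lower with zymosan in all 6 lines measured, and the mitochondrial share is higher in the 3 lines of set 1 and lower in the 3 lines of set 2.

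Transcripts of the mitochondrial genome rose with zymosan in all 6 lines relative to the typical gene, most in set 1. All 6 well counted genes, mt-Nd1, mt-Nd2, mt-Nd4, mt-Nd5, mt-Cytb and mt-Co1, were higher in every line, where 21.5% of all genes were. These 6 are genes of 1 genome with similar changes within a line (2.05 to 2.44 in cells labelled CEBPB-/-), so they are not independent results. mt-Co1 stood at 866 and 816 CPM with DMSO and 1679 and 1571 with zymosan in WT of set 1, a log2 change of 0.95 (SE 0.03, adjusted p = 4.25e-33). In cells labelled CEBPB-/- it went from 956 and 959 CPM to 4569 and 4484, a log2 change of 2.24 (SE 0.03, adjusted p = 1.92e-51). In cells labelled JUNB-/- it went from 1242 and 1188 CPM to 3966 and 4035. The set 2 lines moved less: mt-Co1 stood at 516 and 535 CPM with DMSO and 873 and 854 with zymosan in WT, a log2 change of 0.72 (SE 0.02, adjusted p = 2.92e-45), and changed by 0.44 in cells labelled IRF5-/- and 0.42 in those labelled RELB-/-. mt-Cytb, the only mitochondrial subunit of complex III, had log2 changes of 1.11 in WT of set 1, 2.39 in cells labelled CEBPB-/-, 1.74 in those labelled JUNB-/-, 0.58 in WT of set 2, 0.42 in those labelled IRF5-/- and 0.49 in those labelled RELB-/-. The 4 poorly counted genes that were tested are in the plot by complex and are not counted here.

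Scaling divides the sets here. By total counts, all 6 well counted genes were higher in each of the 3 lines of set 1, where 18.7% to 21.9% of all genes were higher, and all 6 were lower in each of the 3 lines of set 2, where 67.5% to 68.1% of all genes were lower. The mitochondrial share of counts accordingly went from 0.194% and 0.195% to 0.492% and 0.486% in cells labelled CEBPB-/- and from 0.200% and 0.197% to 0.406% and 0.407% in those labelled JUNB-/-. In WT of set 1 it went from 0.237% and 0.230% to 0.292% and 0.274%, and in WT of set 2 from 0.107% and 0.110% to 0.0938% and 0.0929%. In the set 1 lines nuclear and mitochondrial subunits thus moved in opposite directions as shares of counts, and in the set 2 lines both went down.

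**Figure D3:**
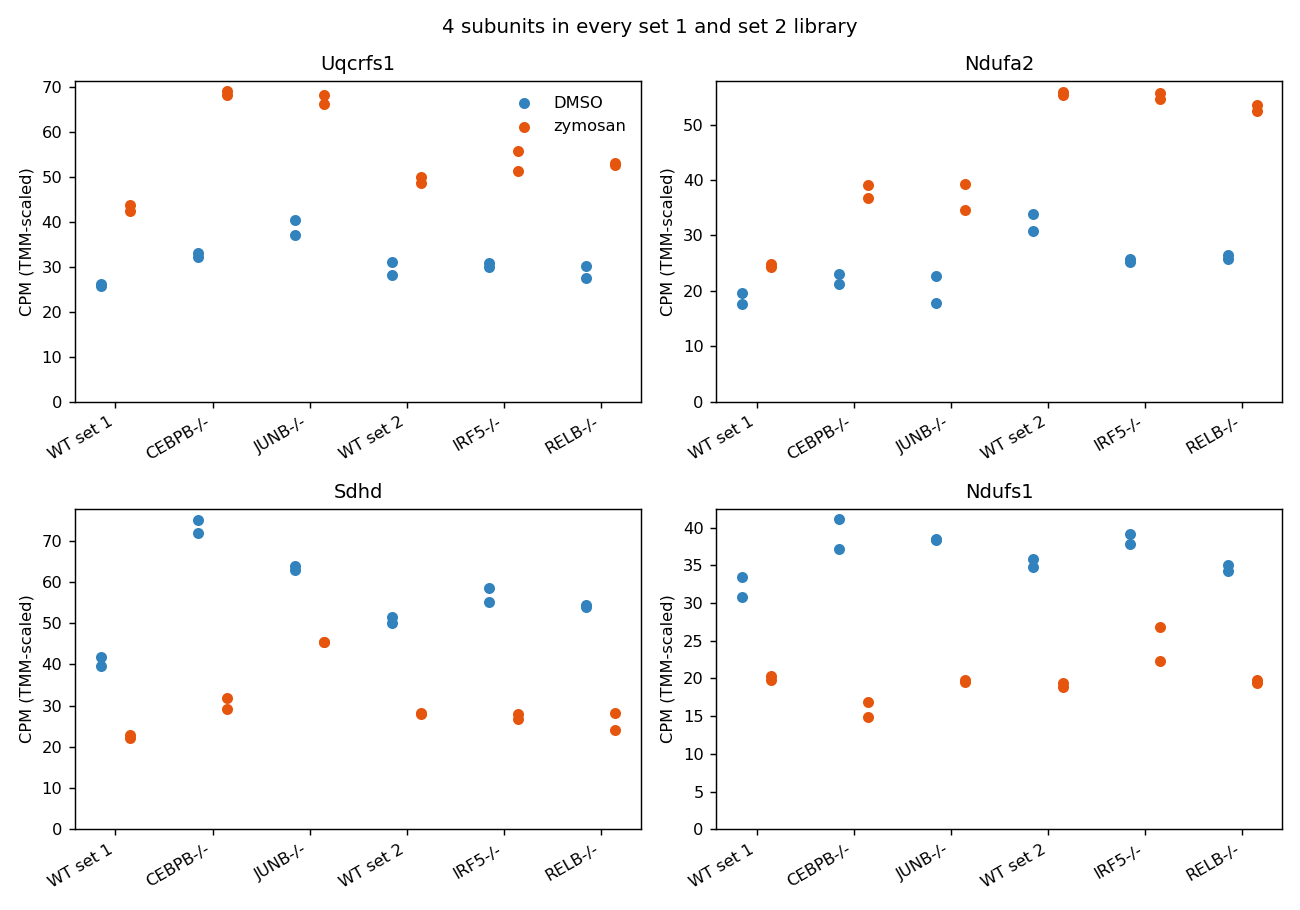
Levels in TMM-scaled CPM of Uqcrfs1, Ndufa2, Sdhd and Ndufs1 in every set 1 and set 2 library, with DMSO (blue) and zymosan (orange). Uqcrfs1 and Ndufa2 are higher and Sdhd and Ndufs1 lower with zymosan in all 6 lines with no overlap within a line, though by total counts Ndufa2 and Uqcrfs1 were not higher in WT of set 2 (-0.09 and -0.14).

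In the comparisons between lines, CEBPB-/- and JUNB-/- share the WT libraries of set 1, and IRF5-/-, RELB-/-, RUNX1-/- and KLF6-/- share those of set 2, so results for lines with the same controls are not independent. With DMSO, cells labelled CEBPB-/- had most nuclear subunits above WT: 59 of 77 were higher and 7 lower, where 33.6% of all genes were higher and 36.9% lower. The nuclear median lay 0.38 log2 units above the median of all genes. Ndufb11, a small accessory subunit of complex I, stood at 36.8 and 34.6 CPM against 18.3 and 17.2 in WT, a log2 difference of 1.01 (SE 0.06, adjusted p = 1.15e-20). Cox7a2l stood at 139.3 and 142.0 CPM against 71.9 and 69.5, and the peripheral stalk subunit Atp5f1 at 186.6 and 185.1 against 104.2 and 94.8. Sdhd was higher by 0.85 (SE 0.05, adjusted p = 4.92e-22). The c-ring gene Atp5g1 was among the few that were lower, at 5.15 and 5.27 CPM against 8.10 and 8.05. The counts depend on scaling: by total counts 30 members were higher and 17 lower, where 17.1% of all genes were higher and 56.4% lower.

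Cells labelled JUNB-/- showed the largest single rises among the lines. With DMSO, 44 of 77 nuclear members were higher and 14 lower, where 35.4% of all genes were higher and 41.1% lower, and by total counts the order turned to 15 higher and 52 lower (all genes 16.7% and 65.1%). Cox7a2l stood at 283.0 and 264.4 CPM against 71.9 and 69.5 in WT, a log2 difference of 1.95 (SE 0.04, adjusted p = 4.25e-44). Ndufv3, an accessory subunit on the NADH-binding module, stood at 92.2 and 87.1 CPM against 20.6 and 19.5, and Ndufb11 at 57.3 and 56.8 against 18.3 and 17.2. Ndufa4l2, the hypoxia-linked relative of Ndufa4, had 280 reads over the 2 libraries and none in WT, which is at least 133.85-fold higher against a floor of 3 reads over the group. It had none in any library of set 2. In set 1 it passed the low-count filter only through the JUNB-/- libraries, and it is among the higher members counted here. With zymosan it had 246 reads against 0, at least 99.5-fold higher. Atp5g1 was lower, at 2.38 and 2.08 CPM against 8.10 and 8.05, a log2 difference of -1.85 (SE 0.14, adjusted p = 9.78e-18). With zymosan, 53 nuclear members were higher and 12 lower in cells labelled JUNB-/- (all genes 39.1% and 37.4%), and 39 and 11 in those labelled CEBPB-/- (all genes 35% and 32.9%). By total counts these became 25 and 32 (all genes 21.9% and 56.8%), and 5 and 46 (14% and 60.7%).

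**Figure D4:**
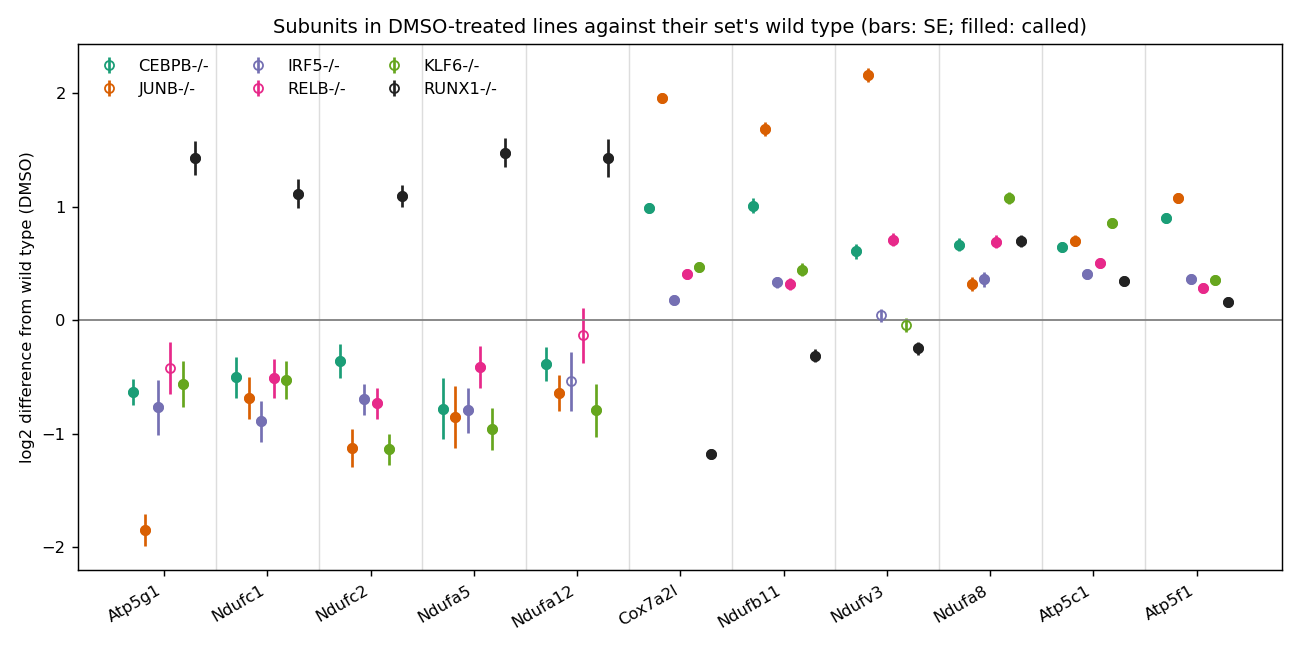
Log2 difference from the WT of the same table with DMSO (TMM scaling) for 11 nuclear members in the 6 labelled lines, where points are fitted values, bars are the SE and filled points are called. Atp5g1, Ndufc1, Ndufc2, Ndufa5 and Ndufa12 lie above 0 in RUNX1-/- and below 0 in the other lines, which share controls within a table, and by total counts Ndufb11 and Ndufv3 turn to 0.05 and 0.12 in RUNX1-/-.

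The zymosan response of these lines differed from that of WT in both genomes. In the test of the difference of responses, cells labelled CEBPB-/- had 4 nuclear members with a more positive response and 23 with a more negative one, where 24.4% and 16.7% of all genes did, and all 6 well counted mitochondrial members with a more positive one. By total counts the nuclear counts were 0 and 49 (all genes 15.6% and 29.9%). Ndufa9 showed the largest more negative nuclear difference, at -0.76 (SE 0.15, adjusted p = 3.59e-05), and mt-Co1 differed by 1.29 (SE 0.05, adjusted p = 2.36e-31). Cells labelled JUNB-/- had 30 nuclear members with a more positive response and 2 with a more negative one (all genes 28.1% and 15.4%), led by Uqcrq at 0.89 (SE 0.11, adjusted p = 4.79e-10) and Ndufa4 at 0.75 (SE 0.12, adjusted p = 6.36e-07). Without the second JUNB-/- DMSO library the 32 calls were 17, without the first WT DMSO library 20, and DESeq2 called 18. RLE scaling gave 18 more positive and 5 more negative (all genes 22.8% and 20.5%). mt-Co1 differed by 0.77 (SE 0.05, adjusted p = 3.86e-21) in that line.

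Marker genes moved with these lines. Eosinophil and mast cell markers, all 5 of which passed the filter, summed to 1637 and 1641 CPM in WT with DMSO, 514 to 536 in cells labelled CEBPB-/- and 221 to 225 in those labelled JUNB-/-. The 8 neutrophil markers summed to 25550 to 27200 CPM in WT, 55760 to 57080 and 68400 to 75270 in those lines, and the 4 cell cycle markers to 45.7 to 48.6, 4.93 to 6.54 and 31.9 to 33.3. The lists did not move as one in cells labelled CEBPB-/-. Siglecf was higher there, at 228.2 and 227.4 CPM against 142.7 and 143.5 in WT, and the other eosinophil and mast cell markers were lower. Ly6g was lower, at 20.8 and 19.3 CPM against 40.1 and 41.1, and the other neutrophil markers were higher. In cells labelled JUNB-/- the cell cycle marker Mki67 overlapped WT, at 19.2 and 19.4 CPM against 18.9 and 21.8. The other cell cycle markers were lower there. No gene of these 3 lists was at 0 in any of the groups. Their part in the subunit differences was not tested, and in bulk RNA fewer cells of a type and less RNA per cell cannot be told apart.

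In cells labelled IRF5-/- and RELB-/- the share of nuclear members above WT was near that of all genes. With DMSO, 24 of 78 nuclear members were higher and 17 lower in cells labelled IRF5-/- (all genes 35% and 29.6%), and 26 and 12 in those labelled RELB-/- (all genes 32.1% and 27.3%). By total counts the IRF5-/- counts were 10 and 29 (all genes 27% and 35.9%). Atp5c1, the rotor shaft of ATP synthase, stood at 78.9 and 77.9 CPM in cells labelled IRF5-/- and 83.3 and 84.8 in those labelled RELB-/-, against 57.6 and 60.6 in WT. Ndufa8 stood at 30.0 and 30.2 CPM, 36.5 and 39.4, and 24.5 and 22.5 in the same order. Ndufc2, an accessory subunit in the membrane arm of complex I, was low in both lines, at 3.28 and 3.35 CPM and at 3.20 and 3.28 against 5.02 and 5.71. With zymosan, 17 nuclear members were higher and 14 lower in cells labelled IRF5-/- (all genes 29.6% and 30.8%), led by the complex II iron-sulfur subunit Sdhb at 0.62 (SE 0.05, adjusted p = 5.68e-18), and 17 and 16 in those labelled RELB-/- (all genes 27.1% and 28.9%). RLE scaling gave 25 and 10 (all genes 33.2% and 28%) for IRF5-/- and 24 and 9 (31.1% and 25.3%) for RELB-/-. Total counts gave 10 and 32 (19.9% and 41.2%), and 15 and 18 (25% and 30.9%).

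Responses to zymosan differed from WT for few members in these lines. In cells labelled IRF5-/-, 6 nuclear members had a more positive and 3 a more negative response (all genes 16.5% and 16.8%), and 4 mitochondrial members a more negative one. In cells labelled RELB-/-, 3 and 7 nuclear members did (all genes 16.1% and 15.3%), and 2 mitochondrial members had a more negative one. With RLE scaling the nuclear counts were 10 and 1 for IRF5-/- (all genes 19.7% and 13.8%) and turned to 9 and 2 for RELB-/- (21.1% and 11.2%). The small totals move with single libraries: without the first WT zymosan library of set 2 they were 14 for IRF5-/- and 16 for RELB-/-, and without the first or the second IRF5-/- zymosan library the IRF5-/- count was 15 or 14. mt-Co1 had a smaller rise than in WT in both, by -0.28 (SE 0.03, adjusted p = 5.92e-13) and -0.29 (SE 0.03, adjusted p = 6.33e-14). Eosinophil and mast cell markers summed to 3477 to 3543 CPM in WT of set 2 with DMSO, 651 to 659 in cells labelled IRF5-/- and 427 to 434 in those labelled RELB-/-, with no gene at 0, and their part in the result was not tested. Of these markers Siglecf was higher than WT in both lines and the others were lower. Siglecf stood at 123.9 and 131.3 CPM in IRF5-/- and 184.7 and 192.9 in RELB-/-, against 100.9 and 103.9.

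Cells labelled RUNX1-/- had higher levels of subunits from both genomes. With DMSO, 54 of 78 nuclear members were higher and 9 lower, where 38.2% of all genes were higher and 37.1% lower, and the nuclear median lay 0.34 log2 units above that of all genes. By total counts 71 were higher and 1 lower, where 56.8% of all genes were higher and 22.5% lower. The nuclear share of counts was 0.537% and 0.539% against 0.352% and 0.343% in WT. Ndufa5, which sits in the peripheral arm of complex I, stood at 12.3 and 11.2 CPM against 4.73 and 3.72, a log2 difference of 1.48 (SE 0.13, adjusted p = 1.23e-12). Ndufa12 stood at 6.18 and 6.30 CPM against 2.60 and 2.05, Ndufc1 at 10.2 and 13 against 5.58 and 5.18, and Atp5g1 at 8.30 and 7.64 against 2.56 and 3.30. Cox7a2l went the other way, at 69.6 and 66.5 CPM against 157.4 and 150.2, a log2 difference of -1.18 (SE 0.04, adjusted p = 2.42e-25). Of the 6 well counted mitochondrial members 5 were higher and 1 lower. mt-Nd2 was higher by 1.53 (SE 0.04, adjusted p = 2.25e-26), mt-Cytb by 1.45 and mt-Nd1 by 1.36, whereas mt-Co1 stood at 620 and 622 CPM against 765 and 792, a log2 difference of -0.33 with TMM and 0.04 by total counts. Markers moved strongly with this line: the neutrophil markers summed to 19320 to 19620 CPM against 69310 to 72590 in WT, the cell cycle markers to 8.97 to 9.14 against 82.3 to 86.8, and the eosinophil and mast cell markers to 768 to 785 against 5146 to 5257, with no gene at 0, and their part in the result was not tested. Within the last list Siglecf was higher, at 282.8 and 284.8 CPM against 149.7 and 153.8, and the others were lower.

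In cells labelled KLF6-/- the share of nuclear members below WT was near that of all genes. With DMSO, 15 of 78 nuclear members were higher (19.2%) and 29 lower (37.2%), where 31.2% of all genes were higher and 35% lower, and 15 of the 29 lower members were among the 29 accessory subunits of complex I. By total counts 8 were higher and 50 lower (all genes 22.7% and 45%). Ndufa8, an intermembrane-space subunit of complex I whose promoter is shown above with the NRF1 core, stood at 73.8 and 72.8 CPM against 36.3 and 33.3 in WT, a log2 difference of 1.08 (SE 0.05, adjusted p = 9.47e-20). Atp5c1 stood at 160.6 and 156.8 CPM against 85.5 and 89.7, a log2 difference of 0.86 (SE 0.03, adjusted p = 7.83e-22), and the core subunit Ndufs3 was higher by 0.55 (SE 0.08, adjusted p = 7.38e-07). Ndufc2 stood at 3.72 and 3.53 CPM against 7.44 and 8.45, a log2 difference of -1.14 (SE 0.14, adjusted p = 5.51e-09), and Ndufa5 and Ndufb6 were lower by -0.96 and -0.85. Cox7a1, the muscle form, had 0 and 5 reads against 10 and 18 in WT. Eosinophil and mast cell markers summed to 621 to 633 CPM in this line against 5146 to 5257 in WT, the cell cycle markers to 54.2 to 54.3 against 82.3 to 86.8 and the neutrophil markers to 80750 to 85030 against 69310 to 72590, with no gene at 0, and their part in the result was not tested. Siglecf was higher, at 212.8 and 214.6 CPM against 149.7 and 153.8, and the other eosinophil and mast cell markers were lower. Of the neutrophil markers Ly6g was lower, at 9.29 and 10.6 CPM against 64.5 and 62.7, as was Csf3r, at 3034 and 3023 against 3414 and 3445. S100a8 overlapped between the groups and the rest were higher.

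The same low-abundance members, Ndufa5, Ndufc1, Ndufc2 and Atp5g1, recur at the ends of these lists. With DMSO the log2 difference of Ndufa5 from WT was -0.78 in cells labelled CEBPB-/-, -0.85 in JUNB-/-, -0.79 in IRF5-/-, -0.41 in RELB-/-, -0.96 in KLF6-/- and 1.48 in RUNX1-/-. The values share control libraries within a set.

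In the neutrophils sorted from tissues no member was called in any of the 6 comparisons by edgeR, and the libraries differed widely within groups. The libraries were made from few cells, and 25 of the 85 nuclear members had reads in all 15 of them, against 77 of 85 in set 1. Several libraries stood apart from their labels. Ccl4 and Ngp are given here in CPM of total counts, without the TMM scaling. Exudate library 5 had 0.1 CPM of Ccl4 where the other exudate libraries had 20467 to 51237, and blood library 5 had 59606 CPM of the granule gene Ngp, near the 65056 to 77627 of bone marrow, while the other blood libraries had 2402 to 11755. Blood libraries 1 and 2 had 7447 and 10857 CPM of Ccl4 against at most 53.3 in the other blood libraries. The 8 neutrophil markers had reads in every group and summed to 85120 to 344600 CPM in exudate, 189400 to 308900 in blood, 202200 to 257700 in bone marrow and 106800 to 154100 in membrane. Erythroid markers reached 1492 CPM in bone marrow library 1, against at most 3.47 in the other tissues, with 1 of the 6 at 0 in bone marrow. Their leading gene Hba-a1 stood at 728.5 CPM in that library and at 5.39 and 2.52 CPM in bone marrow libraries 2 and 3.

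The summed nuclear subunits were steadiest in bone marrow, at 5422, 5660 and 5635 CPM. They stood at 1301, 4665, 4842, 2871 and 9191 CPM in the exudate libraries, at 3284, 2754, 3822, 4750 and 4382 in blood and at 1816 and 2821 in membrane. All blood and membrane libraries lie below bone marrow, and exudate spans both sides, with library 5 the highest of all 15. The summed mitochondrial members stood at 2290, 3756 and 3564 CPM in bone marrow, at 977, 840, 847, 2515 and 4067 in exudate, at 2252, 2118, 1181, 2970 and 1947 in blood and at 1183 and 1619 in membrane. Every bone marrow column is tagged 100 and each membrane column 300, tags whose meaning is not given, so between that pair tag and tissue cannot be told apart.

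**Figure D5:**
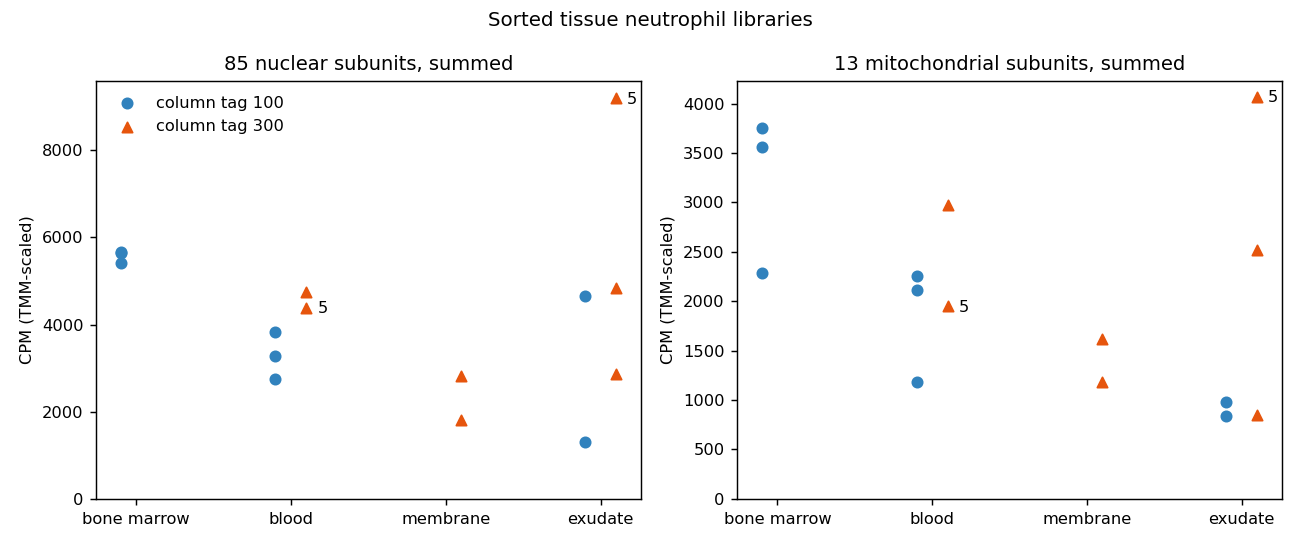
Summed levels in TMM-scaled CPM of the nuclear (left) and mitochondrial (right) subunits in each library of the sorted neutrophils, by tissue, where circles carry the column tag 100, triangles the tag 300, and 5 marks exudate and blood library 5. Bone marrow libraries lie from 5422 to 5660 CPM and exudate libraries from 1301 to 9191 CPM for the nuclear sum.

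By comparison, 0 of 77 nuclear and 0 of 11 mitochondrial members were called in either direction. At an unadjusted p under 0.05, blood against bone marrow had 2 nuclear members (11.7% of all genes), membrane against blood 9 (7.81%), exudate against blood 11 (19.1%), exudate against bone marrow 13 (23.1%), membrane against bone marrow 12 (13.3%) and exudate against membrane 11 (8.22%). The shares of all genes called by edgeR were 0.0162% higher and 0% lower in blood and also in membrane against bone marrow, 0.0649% and 0.114% in exudate against bone marrow, and 0% and 0% in the other 3 comparisons. DESeq2, which gave an adjusted p to 70 of the nuclear members, called 1 lower in blood against bone marrow (0.862% of all genes lower), 13 lower in membrane against blood (15.6%), 8 lower in exudate against blood (12.1%), 11 lower in exudate against bone marrow (12.7%) and 17 lower in membrane against bone marrow (16.2%). In exudate against membrane it called 9 higher and 2 lower (all genes 8.98% and 2.67%). Of the mitochondrial members, 1 in membrane against blood and 1 in exudate against bone marrow reached that unadjusted level, and DESeq2 called 1 in membrane against blood and 1 in membrane against bone marrow. Ndufs8, a core complex I subunit that carries iron-sulfur clusters, came nearest. It stood at 84.5, 126.6 and 27.8 CPM in bone marrow, at 15.5, 0.143, 24.7, 0.483 and 69.6 in blood, at 0 and 2.22 in membrane and at 0 in 4 exudate libraries and 0.0765 in the other. The adjusted p against exudate was 0.0516. Ndufa11 (48.7 to 73.4 CPM in bone marrow, 0 to 5.58 in exudate) and Atp5o (48.9 to 80.6 against 0 to 6.73) did not overlap between these tissues either, with adjusted p of 0.137 and 0.175. Without exudate library 5, or without it and blood library 5, these 3 were called, each lower in exudate (all genes 0.614% lower without the first, 0.716% without both), and no member was called in the other 5 comparisons.

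Other genes of the pathway were taken from a list of assembly factors, mitochondrial transcription and maintenance genes, biogenesis regulators, citric acid cycle enzymes and carriers, of which 86 were tested in set 1 and 82 in set 2. With zymosan, 23 were higher and 41 lower in WT of set 1 (all genes 35.7% and 39.9%) and 24 and 35 in WT of set 2 (36.3% and 32.1%). Of 17 assembly factors of complex IV, 3 were higher and 11 lower in WT of set 1, and 1 was higher and 8 lower in WT of set 2, beside the same shares of all genes. All 3 ATP synthase assembly factors tested were lower in every line, where 22.3% of all genes were. Genes for mitochondrial DNA transcription and maintenance were lower in 7 of 12 and 8 of 12 cases, among them the mitochondrial RNA polymerase Polrmt, which went from 5.99 ± 0.62 to 1.48 ± 0.11 CPM (SD, n = 2) in WT of set 1 while mitochondrial transcripts were higher. The growth regulator Myc rose from 1.76 ± 0.09 to 17.9 ± 0.4 CPM in WT of set 1 and from 0.876 ± 0.057 to 33 ± 0.1 in WT of set 2. Ttc19, an assembly factor that clears fragments of Uqcrfs1 from complex III, rose from 4.05 ± 0.17 to 19.7 ± 0.3 CPM in WT of set 1. In cells labelled RUNX1-/-, 58 of 86 were higher and 15 lower, where 38.2% of all genes were higher and 37.1% lower, and by total counts 75 and 6 (all genes 56.8% and 22.5%). The 58 held 10 of the 12 transcription and maintenance genes, and the biogenesis coactivator Pprc1, which stood at 46.8 ± 1.2 CPM against 7.77 ± 0.96 in WT. The adenine nucleotide carrier Slc25a4 was lower in that line, at 1.22 ± 0.10 against 5.40 ± 0.29. In cells labelled KLF6-/-, 26 were higher and 30 lower, near the 31.2% and 35% of all genes.

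ATAC-seq, which maps open chromatin, covered neutrophils of the same tissues with 2 libraries each, and the deposited lists give sites rather than counts. Of the 85 nuclear members, 76 (89.4%) had a merged open site within 1000 bases of their annotated start, against 10781 of 21257 protein-coding genes (50.7%). The 9 without included the tissue-restricted Cox4i2, Cox6a2, Cox7b2, Cox8b and Cox8c and also the well expressed Atp5d. In the authors' deposited table of sites less open in exudate than in bone marrow, 3 members had one within 1000 bases (3.53%, against 2.12% of all genes). These were Cox7c (chr13:86046247-86047134, listed value 5.2), Ndufa4 (chr6:11907202-11908053, 6.18) and Ndufa5 (chr6:24527329-24527923, 3.24). The listed values were read as the authors' adjusted p on the −log10 scale, a meaning that no label gives. In the authors' deposited table for membrane against bone marrow, the same sites at Cox7c (6.48) and Ndufa5 (4.3) were less open, 2.35% of members against 2.11% of all genes. The other 8 lists had none at that distance. Within 5000 bases, 6 members had a site less open in exudate than in bone marrow (7.06%, against 3.22% of all genes), 3 one less open in membrane than in bone marrow (3.53%, against 3.24%) and 1, Atp5d, one less open in blood than in bone marrow (1.18%, against 0.663%). In RNA, Ndufa5 had no read in any exudate or membrane library and stood at 3.18 to 6.75 CPM in bone marrow, with an adjusted p of 0.113 against exudate, and Cox7c stood at 7.07 to 17.1 CPM in bone marrow and 0 to 2.58 in exudate. Ndufa4 overlapped between these tissues, with 0, 551, 2, 30 and 1218 reads in the exudate libraries and 377, 352 and 1048 in bone marrow. Its log2 change in exudate against bone marrow was -0.37 and was not called.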

How the data were processed

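RNA was analysed in 15 libraries of sorted neutrophils and 28 of ER-Hoxb8 neutrophils, and open chromatin in 8 libraries. The members and gene lists were chosen with earlier results of these data known. Gene counts are raw read pairs deposited by the authors, made with featureCounts 1.5.0-p2 (tissue table, not stranded) and 1.6.3 (ER-Hoxb8 tables, reverse stranded, highest mapping quality only), per the file headers. STAR, Bowtie2, MACS2 and DESeq2 and the build mm10/GRCm38 are named in the submitters' processing notes. Column 5 of the deposited lists of differential sites was read from its values as the authors' −log10 adjusted p. The merged site list holds a deposited score of unstated scale, which was not used, and only positions entered.

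Gene IDs were paired with symbols for 50376 of 50600 (99.6%). Tissue columns name a tissue but no sample, so they were matched to groups only, and 18 columns of the set 1 table matched no sample and were not used. Each table was filtered (filterByExpr, minimum count 10, total 15, share 0.7), scaled by TMM and fitted over all its groups with edgeR 4.0.16 (R 4.3.3, glmQLFit and glmQLFTest), with Benjamini-Hochberg adjustment over all genes tested and a threshold of 0.05. The code was tested on simulated counts. Alternatives were RLE and total-count scaling, DESeq2 1.42.0, voom (limma 3.58.1) for the tissues, no filter, the compared groups only, a block, and leaving out each library. Replicate libraries differed by more than counting noise, with a mean chi-square per gene of at least 1.65. RPKM were computed from CPM and the exon lengths in the tables. Named members were, per comparison, up to 4 called nuclear members per direction with the largest change and no overlap between groups, the mitochondrial members, the extremes per length and isoform pairs, and up to 2 other pathway genes per direction. Further members were named after their values were seen. The 6 well counted mitochondrial genes were chosen by their read counts after the data were seen. Figures were drawn with matplotlib 3.10.9. Values of 1 member are not reported here by name.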

Additional observations from a re-analysis of the deposited data

Results flagged for a closer look

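The level of mt-Cytb in blood library 4 was 673 CPM, far from the nearest blood library at 342.5, and in exudate library 5 it was 2176 CPM, far from the nearest exudate library at 641. Of 20 tests for such a gap, run on summed levels and single genes in the exudate and blood groups of 5 libraries, 2 stood out. Chance gives about 1 in 20 for independent tests, and these are not independent, since they share libraries and the sums hold the single genes.

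The zymosan response differed from that of WT by the test of the difference itself for these named members, as differences in log2 change. In cells labelled CEBPB-/- the difference was 0.38 for Ndufa2, 0.37 for Ndufa4, -0.76 for Ndufa9, -0.69 for Atp5g2, 1.28 for mt-Cytb and 1.29 for mt-Co1. In cells labelled JUNB-/- it was 0.89 for Uqcrq, 0.75 for Ndufa4, -0.29 for Ndufs1, -0.17 for Atp5a1, 0.63 for mt-Cytb and 0.77 for mt-Co1. In cells labelled IRF5-/- it was 0.37 for Sdhb, 0.33 for Ndufa2, -0.30 for Atp5a1, -0.26 for Ndufv3, -0.16 for mt-Cytb and -0.28 for mt-Co1. In cells labelled RELB-/- it was 0.34 for Ndufv2, 0.30 for Atp5h, -0.36 for Ndufa10, -0.31 for Atp5d and -0.29 for mt-Co1. Both lines of a set are compared with the same WT libraries.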

How the results depend on the processing

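Over all alternatives, 568 recomputed counts of called members stayed within 1.5 times the reported count and 50 did not, and of single-gene values 2724 kept direction and call, 185 lost the call and 32 reversed. Most reversals came with total-count scaling. Zymosan in WT of set 1 gave Uqcrq -0.17, Atp5b -0.26 and Atp5g1 -0.27, and in CEBPB-/- Ndufa2 -0.15, Uqcrq -0.29 and Cox7a2 -0.46. In WT of set 2 it gave Ndufa2 -0.0922, Uqcrfs1 -0.14, Uqcrq -0.15, Cox7a2 -0.37, mt-Cytb -0.29 and mt-Co1 -0.16, in IRF5-/- Uqcrfs1 -0.12, Uqcrq -0.19, mt-Cytb -0.52 and mt-Co1 -0.50, and in RELB-/- Uqcrfs1 -0.0173, Uqcrq -0.16, mt-Cytb -0.40 and mt-Co1 -0.47. Against WT with DMSO, mt-Cytb and mt-Co1 became -0.25 and -0.16 in CEBPB-/- and -0.36 and -0.0186 in JUNB-/-, and Ndufb11, Ndufv3 and mt-Co1 became 0.0527, 0.12 and 0.0373 in RUNX1-/-. With zymosan, mt-Co1 in IRF5-/- against WT became -0.0782, and in RELB-/- against WT it was 0.0164 under RLE scaling, 0.0164 under DESeq2 and -0.012 to 0.0157 without single libraries. Total counts gave 75 and 76 nuclear calls for zymosan in WT of set 2 and in IRF5-/-, and 49 for the difference of responses in CEBPB-/-. The cause of these moves beyond the scaling itself was not tested.

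For the difference of responses, DESeq2 called 18 nuclear members in JUNB-/- and 5 in RELB-/-, and leaving out single libraries gave 17 to 30 in JUNB-/-, 6 to 15 in IRF5-/- and 7 to 16 in RELB-/-. Mitochondrial calls there were counted over all tested mitochondrial members, the poorly counted ones included. They were 2 in IRF5-/- under RLE scaling, DESeq2 and no filter and 1 to 4 without single libraries. In RELB-/- they were 1 under the same 3 settings and 1 to 2 without single libraries.

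In the tissues, nuclear calls were 1 for blood against bone marrow with DESeq2 and with voom. Membrane against blood gave 13 with DESeq2, 3 with voom and 1 with the block by column tag and number, and 1 mitochondrial call with DESeq2. Exudate against blood gave 8 with DESeq2, 4 with voom and 1 with no filter. Exudate against bone marrow gave 11 with DESeq2, 16 with voom, 3 with no filter, 2 with the tag block, 1 each with RLE and total-count scaling, 0 to 3 without single libraries, and 3 without exudate library 5 and blood library 5, an alternative chosen after seeing the data. Membrane against bone marrow gave 17 with DESeq2, 17 with voom, 2 with the tag block, 1 with no filter, 1 with the compared groups only, and 1 mitochondrial call with DESeq2. Exudate against membrane gave 11 with DESeq2 and 1 with no filter. The cause was not tested.

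Replicate numbers do not pair the ER-Hoxb8 libraries: deviations of same-numbered libraries correlated at -0.065 to 0.145 in set 1, with 1 of 15 pairs of groups over 0.1, at -0.038 to 0.038 in set 2 and at -0.029 to 0.069 in the RUNX1 and KLF6 table. With the replicate block the nuclear calls went from 58 to 59 in JUNB-/- with DMSO, from 48 to 46 for zymosan in WT of set 2 and from 10 to 13 for the difference of responses in RELB-/-, and no ER-Hoxb8 count moved by more than 1.5 times. Few reads limit the poorly counted mitochondrial genes and the tissue libraries.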
